A study of Mus musculus with 4 samples.

Results

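The last interval of a differentiation time course of C2C12 cells, 168 h against 120 h after the switch to low serum, is described here at the level of genes, gene groups and exons. C2C12 is an established mouse myoblast line, with the strain label C57BL/6. It was grown in high serum and switched at confluence to a low serum medium, in which myoblasts leave the cell cycle and fuse into myotubes. Polyadenylated RNA was copied from random hexamers after fragmentation and sequenced from both ends, in exponentially growing cells 24 h before the switch (time -24 h) and at 60 h, 120 h and 168 h after it. The comparison uses 2 of the 4 libraries, chosen by their time labels: the 168 h library, and the 120 h library as the earlier state. Both come from the same line on the same medium without other treatment, so time after the switch is the labelled difference. There was 1 library per time point and therefore no replicate of either side: no test between the time points was possible, and errors below cover counting only. RNA came from whole plates of 1 clonal line that can hold myotubes and undifferentiated cells side by side, and in such bulk RNA fewer cells of a type and less RNA per cell cannot be told apart.

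Muscle differentiation begins with myogenic transcription factors of the MyoD family, which act while the cells withdraw from the cell cycle. Myocytes then fuse, assemble sarcomeres from embryonic isoforms of actin, myosin and troponin, and exchange part of these for later isoforms as the myotubes mature. Cells that do not fuse remain among the myotubes as reserve cells, and the layer deposits a collagen-rich matrix.

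The deposited transcript assemblies gave each transcript a level scaled to its length and to the library's size, with lower and upper confidence limits. The limits imply that the values count fragments, so the unit is written FPKM. A gene's level was the median, over its introns, of the summed FPKM of the transcripts that carry each intron, and ± is the distance to the confidence limit. The limits implied 43845259 fragments in the 168 h library and 24488680 in the 120 h library, and 28513975 and 48228882 at -24 h and 60 h. The median distance to the limit was 10.1% of a gene's level at 168 h and 13.3% at 120 h. Genes were named by matching intron and exon lengths to the GENCODE annotation, which named 12934 genes, 12232 of them protein-coding.

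A level in both libraries was available for 10959 genes, and most differed little between 168 h and 120 h. A gene was said to have risen or fallen when log2(FPKM + 1) changed by 1 or more (2-fold), the higher of its levels was 1 FPKM or more, and the intervals did not overlap. By this rule 153 genes (1.4%) rose and 280 (2.55%) fell at 168 h, 433 (3.95%) in all. Of the protein-coding genes, 150 rose and 269 fell. The median log2 ratio of 168 h over 120 h over all genes was -0.05, with quartiles of -0.30 and 0.19, and 45.2% of the genes lay above 0. At least 4-fold differences were seen for 13 genes that rose and 33 that fell. Counted only on introns that both libraries held, 121 of the 153 and 226 of the 280 met the same rule. Genes that share sequence with another gene were called more often: 16.26% of the 326 genes with at least 20% of their 50-base words in another gene met the rule, against 3.5% of the 7309 genes with none. Genes with over 5% of shared words are marked below as having copies, because reads may be split between them, and without them 130 genes rose and 203 fell.

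**Figure D1:**
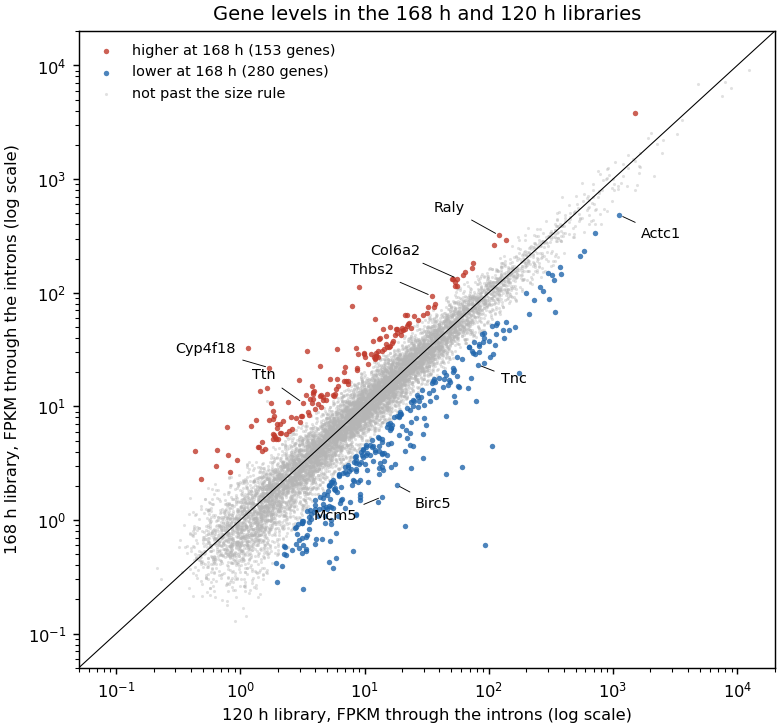
Gene levels in FPKM on log axes, 120 h on the x axis and 168 h on the y axis, for the 10959 genes with a level in both libraries. Red points are the 153 genes that rose at 168 h, blue points the 280 that fell and grey points the rest; the bulk lies on the diagonal, and labelled genes are described in the text.

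Markers of the labelled cells were high in both libraries. Marker sums cover only the members with a level, so they can differ through a missing level alone. The myotube markers summed to 12410 FPKM at 168 h and 12940 FPKM at 120 h, with 8 and 7 of 8 detected. The member without a level at 120 h was Tnnt3. Skeletal actin Acta1 was at 7219 ± 22.0 FPKM at 168 h and 7931 ± 30.5 FPKM at 120 h, and muscle creatine kinase Ckm was at 1215 ± 8.57 and 898.5 ± 10.02 FPKM at the same times. The 5 markers of growing myoblasts summed to 115.1 FPKM at 168 h and 172.2 FPKM at 120 h. Markers of other cell types that a plate could hold were detected in part. The fibroblast markers summed to 2692 FPKM at 168 h and 4043 FPKM at 120 h, with 9 and 7 of 12 detected. Most of each sum was Vim, at 1279 and 1638 FPKM, and S100a4, at 1069 and 2119 FPKM, at 168 h and 120 h. In the growing cells at -24 h, Vim was at 3604 FPKM and S100a4 at 2655 FPKM. Thy1, Cd248 and Tcf21 had no level in either library. Of 14 osteoblast and chondrocyte markers, 3 had a level, summing to 220.2 FPKM at 168 h and 371.7 FPKM at 120 h, nearly all of it Spp1, and Sp7, Alpl and Bglap had none in either. The macrophage and endothelial markers summed to 5.989 FPKM at 168 h and 3.555 FPKM at 120 h, with 4 and 3 of 12 detected, Cd68 among them, and Adgre1, Ptprc, Pecam1 and Cdh5 had no level in either. Of 11 adipocyte markers, 2 had a level, summing to 2.381 FPKM at 168 h and 1.945 FPKM at 120 h, and Adipoq and Plin1 had none. The reserve cell markers summed to 262 FPKM at 168 h, with 13 of 15 detected, and to 255.8 FPKM at 120 h, with 10 of 15 detected. Pax7, Sdc3 and Spry1 entered this sum only at 168 h.

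Genes of the cell cycle formed the group with the lowest median. Of 45 members with a level in both libraries, 27 fell at 168 h and 0 rose, with a median log2 ratio of -1.33. Over all genes 2.55% fell and 1.4% rose. The cyclin gene Ccnd2, at 12.3 ± 0.688 FPKM at 168 h and 11.7 ± 0.863 FPKM at 120 h, was the 1 member with a ratio above 0. The replicative helicase subunit Mcm5 was at 1.60 ± 0.359 FPKM at 168 h and 13.8 ± 2.37 FPKM at 120 h, a log2 ratio of -2.51 (-0.80 by the sum over transcripts, which ends the call). Its partner Mcm3 was at 2.15 ± 0.260 FPKM at 168 h and 10.6 ± 0.774 FPKM at 120 h, a log2 ratio of -1.89. Both were high before the switch, with Mcm5 at 161.5 FPKM and Mcm3 at 110.5 FPKM at -24 h, and at 23.1 and 18.5 FPKM at 60 h. Of the genes of mitosis, Birc5, a subunit of the chromosomal passenger complex, was at 2.04 ± 0.389 FPKM at 168 h and 18.1 ± 1.88 FPKM at 120 h. Its log2 ratio of -2.65 was the lowest of the list, and its levels were 153 FPKM at -24 h and 37.0 FPKM at 60 h. The mitotic cyclins fell with them. Ccnb2 was at 4.59 ± 0.544 FPKM at 168 h and 23.0 ± 1.59 FPKM at 120 h, and Ccna2 was at 1.51 ± 0.269 FPKM at 168 h and 9.19 ± 0.979 FPKM at 120 h. Their kinase partner Cdk1 was at 6.70 ± 0.729 FPKM at 168 h and 20.0 ± 1.67 FPKM at 120 h, after 188 FPKM at -24 h and 38.7 FPKM at 60 h. The mitotic kinase Aurka was at 2.73 ± 0.421 FPKM at 168 h and 14.0 ± 1.13 FPKM at 120 h. Plk1, another mitotic kinase, has copies and was at 1.44 FPKM at 168 h and 12.8 FPKM at 120 h. Also among the 27 were the cytokinesis genes Anln and Kif23, the ubiquitin ligase components Ube2c and Cdc20 (copies), the centromeric histone Cenpa, and the transcription factor Foxm1. The activator E2f2 followed another course: it was at 9.73 FPKM at -24 h and 38.9 FPKM at 60 h, and at 7.94 ± 0.439 FPKM at 168 h against 30.0 ± 1.05 FPKM at 120 h. Top2a and Lig1, of DNA untangling and ligation, fell by the intron measure but not by the sum over transcripts, where their log2 ratios were 0.07 and 0.31. Ccnb1, Mybl2 and Pcna, which have copies, and Tk1 had a level at 120 h and none at 168 h.

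Several members of the cell cycle list did not pass the rule. Mki67, the proliferation antigen, was at 0.601 ± 0.491 FPKM at 168 h and 1.74 ± 0.328 FPKM at 120 h, close to the counting limit at both times. Cyclin D1, Ccnd1, was at 9.26 ± 0.864 FPKM at 168 h and 17.5 ± 1.60 FPKM at 120 h. Of 17 genes of cell cycle exit, 1 rose at 168 h and 0 fell, beside 3.95% called over all genes. The stress-response gene Trp53inp1 was at 5.86 ± 0.715 FPKM at 168 h and 2.09 ± 1.16 FPKM at 120 h, and was not called by the mean over introns, where its log2 ratio was 0.69. The kinase inhibitor Cdkn1a stayed abundant, at 1295 ± 7.24 FPKM at 168 h and 1628 ± 11.4 FPKM at 120 h, and was not called.

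**Figure D2:**
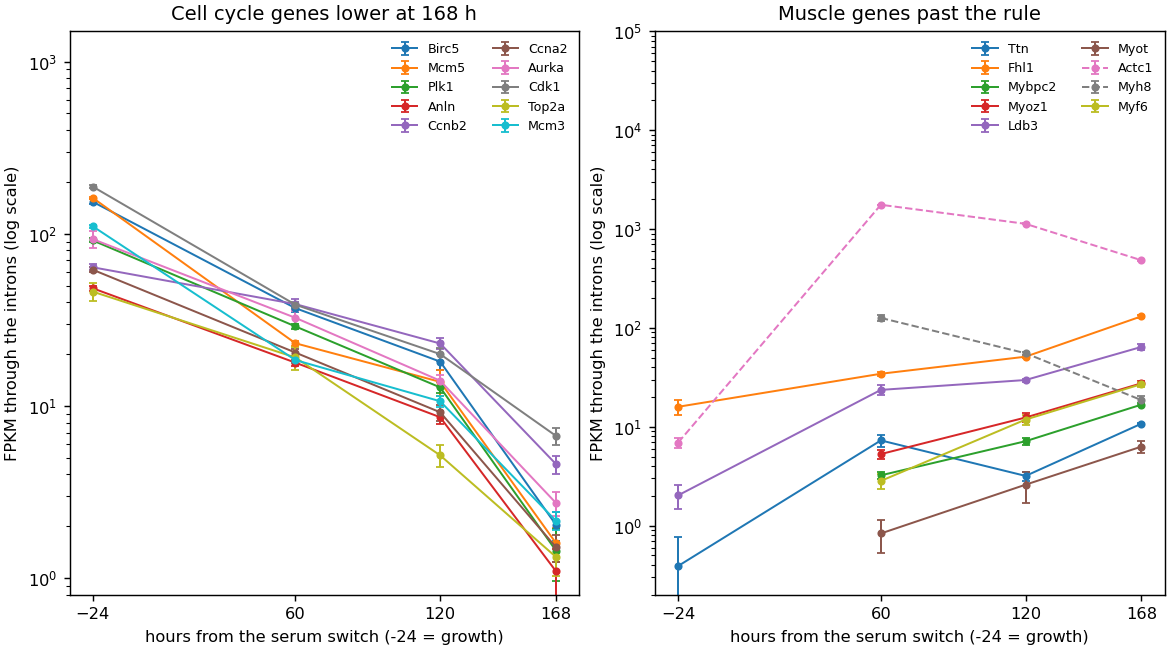
Levels in FPKM on a log axis at -24 h, 60 h, 120 h and 168 h, with bars to the confidence limits; the left panel shows 10 cell cycle genes and the right panel 9 muscle genes. All 10 cell cycle genes are lower at 168 h than at 120 h, the 7 muscle genes with solid lines are higher, and Actc1 and Myh8 (dashed) are lower.

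Promoters of cell cycle genes often carry a CHR element, read as TTTGAA, and a CCAAT box, the binding site of NF-Y. The 150 bases before and 20 after the start sites of RefSeq (GRCm38.p6) were searched on both strands, for 22 of the 27 genes that fell. A gene counted where any of its start sites held the motif. List members that did not fall were not compared, so whether the motifs go with the fall was not tested. TTTGAA was found for 9 of the 22 genes, against 11.5% of 27025 genes. CCAAT was found for 18 of the 22, against 29.5% of all genes, and both for 9, against 3.1%. These were Ccnb2, Ube2c, Cdc20, E2f2, Kif23, Prc1, Cdk1, Top2a and Cdc45, and such a match describes letters, not a bound site. The promoters of 4 of them are printed 5′ to 3′ on the gene's strand, to show how the pair of motifs lies ahead of genes whose RNA fell. Capitals mark the motifs, written ATTGG and TTCAAA where they lie on the other strand.
Ccnb2, chr9:70421535-70421704, minus strand: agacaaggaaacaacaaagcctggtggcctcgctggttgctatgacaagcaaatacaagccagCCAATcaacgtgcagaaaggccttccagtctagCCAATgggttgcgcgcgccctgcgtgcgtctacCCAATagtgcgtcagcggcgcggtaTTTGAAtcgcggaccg
Ube2c, chr2:164769779-164769948, plus strand: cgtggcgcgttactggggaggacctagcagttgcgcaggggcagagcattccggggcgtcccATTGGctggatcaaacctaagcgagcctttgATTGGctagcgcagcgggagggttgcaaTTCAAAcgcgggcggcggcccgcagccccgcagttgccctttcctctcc
Kif23, chr9:61946780-61946949, minus strand: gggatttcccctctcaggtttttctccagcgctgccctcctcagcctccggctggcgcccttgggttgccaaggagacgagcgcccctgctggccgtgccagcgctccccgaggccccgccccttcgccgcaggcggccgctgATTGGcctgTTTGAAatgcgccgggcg
Cdk1, chr10:69352893-69353062, minus strand: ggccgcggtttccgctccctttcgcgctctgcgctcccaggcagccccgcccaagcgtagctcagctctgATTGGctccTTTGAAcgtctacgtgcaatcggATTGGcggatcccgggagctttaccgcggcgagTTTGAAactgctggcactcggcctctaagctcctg
At 168 h these genes were at 4.59, 5.29, 0.681 and 6.70 FPKM in the order printed, against 23.0, 22.1, 4.05 and 20.0 FPKM at 120 h.

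The contractile apparatus changed in single members rather than as a group. Of 59 sarcomere genes compared, 7 rose and 2 fell at 168 h, with a median log2 ratio of -0.10. Over all genes 1.4% rose and 2.55% fell. Among those that rose were Ttn, Fhl1, Mybpc2, Myoz1, Ldb3 and Myot. The LIM protein gene Fhl1 was at 131 ± 4.56 FPKM at 168 h and 51.1 ± 2.07 FPKM at 120 h, a log2 ratio of 1.34, after 15.9 FPKM at -24 h and 34.4 FPKM at 60 h. Mybpc2, the fast myosin-binding protein C, was at 16.7 ± 0.652 FPKM at 168 h and 7.14 ± 0.575 FPKM at 120 h. Genes of the Z-disc were among those that rose. Myoz1 was at 27.5 ± 1.66 FPKM at 168 h and 12.4 ± 1.27 FPKM at 120 h, and Myot was at 6.30 ± 0.842 FPKM at 168 h and 2.60 ± 0.893 FPKM at 120 h. Ldb3 was at 64.2 ± 4.55 FPKM at 168 h and 29.7 ± 1.06 FPKM at 120 h, but its log2 ratio on the introns that both libraries held was 0.11. Ttn, which encodes titin, the spring of the sarcomere, was at 10.7 ± 0.12 FPKM at 168 h and 3.18 ± 0.341 FPKM at 120 h over 235 shared introns. Its log2 ratio was 1.49, but 0.42 by the mean over introns and -0.27 by the sum over transcripts, the opposite direction.

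The 2 sarcomere genes that fell encode developmental isoforms. Actc1, the cardiac actin of early myotubes, was at 483 ± 5.47 FPKM at 168 h and 1128 ± 10.7 FPKM at 120 h, a log2 ratio of -1.22, after 6.92 FPKM at -24 h and 1758 FPKM at 60 h. Perinatal myosin Myh8, which has copies among the other myosins, was at 18.6 ± 2.01 FPKM at 168 h and 55.4 ± 1.89 FPKM at 120 h. Embryonic myosin Myh3 was at 400 ± 5.65 FPKM at 168 h and 638 ± 13.1 FPKM at 120 h, a log2 ratio of -0.67, and did not pass. The slow troponins Tnnc1, Tnni1 and Tnnt1 had log2 ratios of -0.53, -0.42 and -0.62 and did not pass either. The striated muscle genes Klhl40, Tmod4 and Mylk2 had log2 ratios of 0.76, 0.97 and 0.86, below the 2-fold bound.

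Other muscle lists held few or no called genes. Over all genes 3.95% were called, so a count of 0 in lists this short lies close to that share. None of 29 genes of excitation-contraction coupling and none of 16 genes of the neuromuscular junction rose or fell, with medians of 0.02 and 0.01. The calcium pump Atp2a1 was at 1401 ± 21.4 FPKM at 168 h and 1030 ± 22.2 FPKM at 120 h, and the calcium buffer Casq2 had a log2 ratio of -0.86. At the junction, acetylcholinesterase (Ache), the agrin receptor Lrp4 and agrin (Agrn) had log2 ratios of 0.76, 0.73 and 0.67, each under 2-fold. Of 28 genes of muscle energy supply, 2 rose and 1 fell. Cox8b, a cytochrome oxidase subunit of striated muscle, was at 265 ± 6.41 FPKM at 168 h and 110.0 ± 3.55 FPKM at 120 h, and at 75.7 FPKM at 60 h. The other was lactate dehydrogenase B, Ldhb, which has copies and whose sum over transcripts gave -0.23. The brain-type creatine kinase Ckb, which has copies, fell to 34.0 ± 1.88 FPKM at 168 h, against 83.6 ± 4.003 FPKM at 120 h, while the muscle form Ckm had a log2 ratio of 0.43. None of 47 oxidative phosphorylation genes was called, with a median of -0.07.

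Among 20 myogenic regulators, 1 rose and 1 fell. Myf6, the MyoD family member of late differentiation, was at 27.0 ± 1.48 FPKM at 168 h and 11.8 ± 1.37 FPKM at 120 h, after 2.83 FPKM at 60 h. The TEAD cofactor Vgll2 fell to 2.49 ± 0.659 FPKM at 168 h, against 6.28 ± 1.95 FPKM at 120 h. The other family members did not pass: Myod1 was at 86.1 ± 2.06 FPKM at 168 h and 134 ± 3.44 FPKM at 120 h, and Myog was at 326 ± 4.42 FPKM at 168 h and 488 ± 6.92 FPKM at 120 h. Their log2 ratios were -0.63 and -0.58, and that of Myf5 was 0.08. None of 23 fusion genes was called. Their median was -0.36 and 4 of 23 lay above 0, against 45.2% of all genes. The fusion gene Mymx had a log2 ratio of -0.98, the cadherins Cdh2 and Cdh15 -0.84 and -0.75, and Mymk, which drives membrane mixing, was at 800 ± 6.97 FPKM at 168 h and 1027 ± 10.6 FPKM at 120 h. Neither the 16 inhibitors of myogenesis nor the 20 genes of the dystrophin complex held a called gene. For lists this short, 0 lies close to the 3.95% called over all genes.

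Matrix genes contributed 6 genes that rose and 2 that fell among 55 compared, with a median log2 ratio of 0.12. Over all genes 1.4% rose and 2.55% fell. Both chains of collagen VI that pair with Col6a3 rose: Col6a1 was at 291 ± 3.01 FPKM at 168 h and 137 ± 2.63 FPKM at 120 h, and Col6a2 was at 133 ± 2.50 FPKM at 168 h and 55.9 ± 1.85 FPKM at 120 h. Col6a3 itself was at 116 ± 5.30 FPKM at 168 h and 94.2 ± 5.51 FPKM at 120 h and did not pass. Collagen VI lies in the matrix around muscle fibres, and its chain genes were at 3.55 FPKM for Col6a1 and 0.513 FPKM for Col6a2 at -24 h. The matricellular gene Thbs2 was at 93.7 ± 1.31 FPKM at 168 h and 34.6 ± 1.07 FPKM at 120 h, above its 8.84 FPKM at -24 h and 13.2 FPKM at 60 h. The small proteoglycan decorin, Dcn, was at 57.7 ± 3.48 FPKM at 168 h and 27.1 ± 1.57 FPKM at 120 h, with a log2 ratio of 1.06, or 0.87 by the mean over introns. Dcn is also a fibroblast marker. Of 7 fibroblast markers compared, 4 lay above 0, with a median log2 ratio of 0.06. The part of fibroblasts in the Dcn result was not tested. Spon2 was at 12.8 FPKM at 168 h and 4.98 FPKM at 120 h. Ogn, another small proteoglycan, rose by the intron measure to 12.7 ± 0.657 FPKM at 168 h, against 3.83 ± 0.531 FPKM at 120 h, but its sum over transcripts had a log2 ratio of -1.33. The collagens Col3a1 and Col1a1 had log2 ratios of 0.64 and 0.09 and did not pass. Tenascin C, Tnc, fell to 23.2 ± 1.13 FPKM at 168 h, against 81.4 ± 4.17 FPKM at 120 h and 129 FPKM at 60 h, and the collagen-processing enhancer Pcolce2 fell as well. Of 23 protease and inhibitor genes, 1 rose and 1 fell, beside 3.95% called over all genes. The gelatinase Mmp2 rose to 164 ± 2.16 FPKM at 168 h, against 73.7 ± 1.98 FPKM at 120 h.

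Of 24 genes of stress fibres and smooth muscle compared, 4 fell and 0 rose at 168 h, beside 2.55% that fell over all genes. The median of the 24 was -0.49, and 5 lay above 0. Myosin light chain Myl9 was at 40.1 ± 2.79 FPKM at 168 h and 132 ± 4.33 FPKM at 120 h. The smooth muscle actin Actg2 was at 3.85 ± 0.517 FPKM at 168 h and 14.4 ± 1.34 FPKM at 120 h, after 251 FPKM at -24 h and 47.3 FPKM at 60 h. The actin-binding gene Tagln was at 10.04 ± 0.924 FPKM at 168 h and 24.6 ± 1.44 FPKM at 120 h, after 671 FPKM at -24 h and 52.2 FPKM at 60 h. Synpo2 fell by the intron measure, with a log2 ratio of -1.11, and had -0.20 on the shared introns. The smooth muscle actin Acta2 was at 404 ± 4.50 FPKM at 168 h and 803 ± 8.80 FPKM at 120 h, a log2 ratio of -0.99, just short of the rule. Of 29 genes of the serum and growth factor response, 2 rose and 1 fell, beside 3.95% called over all genes. The nuclear receptor Nr4a1 was at 41.3 ± 3.23 FPKM at 168 h and 14.9 ± 2.77 FPKM at 120 h. The matricellular gene Ccn1 was at 79.3 ± 1.91 FPKM at 168 h and 36.9 ± 1.75 FPKM at 120 h, below its 218 FPKM at -24 h. Klf10 fell to 13.8 FPKM at 168 h, against 28.8 FPKM at 120 h, but not after either rescaling of the libraries, and Egr1 and Fos had log2 ratios of -0.12 and 0.16.

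**Figure D3:**
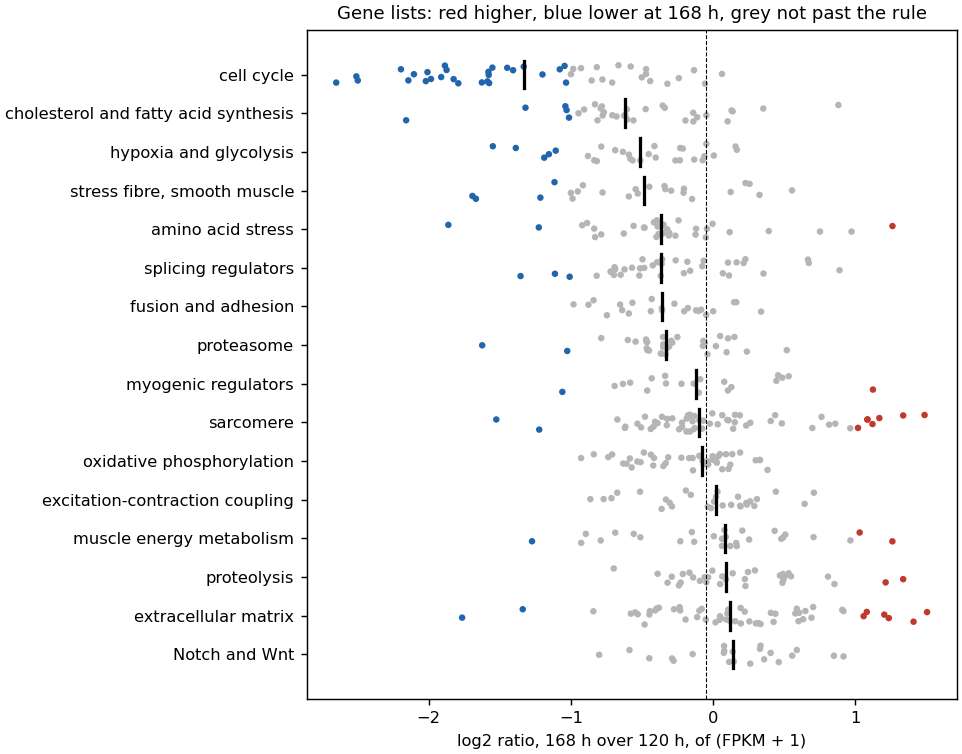
Log2 ratios of 168 h over 120 h on the FPKM + 1 scale for the members of 16 gene lists, 1 dot per gene, with a black bar at the list's median and a dashed line at the median of all genes (-0.05). The cell cycle list lies lowest, at a median of -1.33, and the sarcomere list, at -0.10, lies near the dashed line with members on both sides.

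A minority of sterol and hypoxia genes fell at 168 h, beside 2.55% that fell over all genes. Of 33 genes of cholesterol and fatty acid synthesis, 5 fell and 0 rose, the median was -0.62, and 5 of 33 lay above 0. The sterol enzyme Nsdhl was at 19.9 ± 0.973 FPKM at 168 h and 51.2 ± 2.19 FPKM at 120 h. Squalene epoxidase, Sqle, was at 27.0 ± 0.840 FPKM at 168 h and 55.5 ± 1.73 FPKM at 120 h, and lanosterol synthase, Lss, was at 6.95 ± 0.372 FPKM at 168 h and 15.3 ± 0.741 FPKM at 120 h. The sterol carrier gene Stard4 and the prenyl synthase Fdps, which has copies, were the others. Fdps was at 14.56 FPKM at 168 h, 68.46 FPKM at 120 h and 24.95 FPKM at 60 h. At 60 h Nsdhl, Sqle, Lss and Stard4 were at 58.6, 62.6, 20.8 and 5.29 FPKM. With the libraries scaled to equal totals, 2 of the 33 genes fell. The transcription factor Srebf2 had a log2 ratio of 0.14, and fatty acid synthase, Fasn, had 0.35. In lipid use, 1 of 29 genes rose, beside 1.4% over all genes. Lipoprotein lipase, Lpl, was at 42.5 ± 1.29 FPKM at 168 h and 17.5 ± 1.17 FPKM at 120 h, after 0.725 FPKM at -24 h and 2.83 FPKM at 60 h. Of 29 targets of the hypoxia-inducible factor and genes of glycolysis, 5 fell and 0 rose, with a median of -0.51 and 3 of 29 above 0. The oxygen sensor Egln3 was at 40.3 ± 3.05 FPKM at 168 h and 91.0 ± 2.38 FPKM at 120 h, and the glycolytic enzyme Pfkp was at 26.0 ± 0.916 FPKM at 168 h and 60.5 ± 1.89 FPKM at 120 h. The pyruvate dehydrogenase kinase Pdk1 was at 8.60 ± 0.399 FPKM at 168 h and 19.7 ± 1.02 FPKM at 120 h. Ankrd37 fell too, as did Eno1, which has copies. Vegfa and Slc2a1 had log2 ratios of -0.45 and -0.13.

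Genes of amino acid supply and protein quality control moved in single members, beside 3.95% called over all genes. Of 37 genes of amino acid synthesis and the ATF4 response, 1 rose and 2 fell, with a median of -0.37. The stress transcription factor Ddit3 was at 181.0 ± 5.55 FPKM at 168 h and 74.8 ± 4.03 FPKM at 120 h, after 9.83 FPKM at -24 h and 87.2 FPKM at 60 h. The serine synthesis enzyme Psph fell to 31.0 ± 1.47 FPKM at 168 h, against 73.8 ± 5.93 FPKM at 120 h, together with Phgdh, which has copies. Phgdh was at 29.1 FPKM at 168 h and 108 FPKM at 120 h. At 60 h Psph was at 113 FPKM and Phgdh at 51.7 FPKM. Their pathway neighbour Psat1 and the factor Atf4 had log2 ratios of -0.83 and -0.42. The hormone gene Fgf21 had -0.92. Of 28 genes of folding in the endoplasmic reticulum, Sdf2l1 rose, to 33.1 FPKM at 168 h against 15.7 FPKM at 120 h, and the chaperone Hspa5 had a log2 ratio of 0.86. Of 33 genes of protein breakdown, 2 rose and 0 fell. Fbxo32, the muscle ubiquitin ligase atrogin-1, was at 21.6 ± 0.774 FPKM at 168 h and 8.75 ± 0.655 FPKM at 120 h, after 2.23 FPKM at -24 h and 6.47 FPKM at 60 h. The other muscle ubiquitin ligase, Trim63, was at 65.2 ± 2.42 FPKM at 168 h and 46.1 ± 2.77 FPKM at 120 h and did not pass. Of 33 proteasome genes, 2 fell and 0 rose, with a median of -0.33, and 1 of the 2, Psmb3, which has copies, had a log2 ratio of 0.54 on introns that both libraries held. In heat shock and redox lists, Hspd1 and Prdx1, both with copies, fell, and Prdx1 had a log2 ratio of 0.37 by the sum over transcripts.

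Nuclear and RNA genes fell in small numbers, beside 2.55% that fell over all genes. Of 37 splicing regulators, 3 fell and 0 rose, with a median of -0.37. Hnrnpm was at 9.89 ± 1.27 FPKM at 168 h and 26.8 ± 3.75 FPKM at 120 h, Srsf10, which has copies, fell too (-0.49 on shared introns), and Hnrnpl had a log2 ratio of 0.09 by the sum over transcripts. Of 26 genes of histones and chromatin, the lamin gene Lmnb1 fell to 3.27 ± 0.353 FPKM at 168 h, against 9.43 ± 0.789 FPKM at 120 h and 71.2 FPKM at -24 h. Uhrf1, which maintains DNA methylation and has copies, was the other. Of 15 circadian genes, 3 fell: the clock output factors Dbp and Nfil3 and the repressor Ciart, which has copies. Dbp was at 11.3 ± 1.51 FPKM at 168 h and 33.4 ± 2.10 FPKM at 120 h (log2 ratio -0.79 by the mean over introns, which ends the call), and Nfil3 was at 11.2 ± 2.67 FPKM at 168 h and 27.6 ± 1.52 FPKM at 120 h. At 60 h Dbp was at 6.20 FPKM and Nfil3 at 32.7 FPKM. Of 32 ribosome biogenesis genes, Ddx18 and Fbl fell, both with copies and Ddx18 on introns that differ between the libraries, and all 6 of the 19 ribosomal protein genes that fell have copies. Signalling lists gave little: 1 of 28 TGF-beta genes rose, Inhbb, at 29.2 ± 1.04 FPKM at 168 h and 8.83 ± 0.775 FPKM at 120 h. Inhbb encodes an activin subunit. The 16 IGF genes, the 22 Notch and Wnt genes and the 20 inflammation genes held none, close to the 3.95% called over all genes. Bst2, the antiviral membrane protein tetherin, was the 1 of 29 interferon genes that rose, at 63.8 ± 2.81 FPKM at 168 h and 21.1 ± 2.13 FPKM at 120 h. Of 28 genes of secreted factors, Dcn rose and the hormones Apln and Erfe fell, Apln to 1.12 ± 0.186 FPKM at 168 h against 3.71 ± 0.438 FPKM at 120 h. Single markers of other cells were called. Cxcr4, of the reserve cell list, rose to 6.94 FPKM at 168 h against 1.98 FPKM at 120 h, on introns that differ between the libraries. Only 3 of the 10 reserve cell markers compared lay above 0, with a median of -0.205. Cd68, 1 of 3 macrophage and endothelial markers compared, rose to 4.41 FPKM at 168 h against 1.39 FPKM at 120 h. The cardiac troponin Tnni3 fell to 4.66 ± 0.808 FPKM at 168 h against 15.4 ± 2.51 FPKM at 120 h. Of the 4 cardiac markers compared, 3 lay above 0.

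Among the largest rises outside these lists were genes of several enzymes. The cytochrome P450 gene Cyp4f18 was at 21.9 ± 1.07 FPKM at 168 h and 1.70 ± 0.879 FPKM at 120 h, a log2 ratio of 3.08, or 1.28 by the sum over transcripts. Gamma-glutamyltransferase Ggt5 was at 13.7 ± 0.716 FPKM at 168 h and 1.45 ± 0.427 FPKM at 120 h, and the aldehyde dehydrogenase Aldh3a1 was at 32.6 ± 1.31 FPKM at 168 h and 8.53 ± 2.66 FPKM at 120 h. Sco2, an assembly factor of cytochrome oxidase, was at 58.9 ± 3.44 FPKM at 168 h and 12.2 ± 2.16 FPKM at 120 h, above its 27.0 FPKM at -24 h and 14.1 FPKM at 60 h. The iron-sulfur cluster chaperone Hscb rose by the intron measure, with a log2 ratio of 2.14, and had 0.14 by the sum over transcripts. The RNA-binding gene Raly was at 321 ± 6.14 FPKM at 168 h and 120.3 ± 5.82 FPKM at 120 h, and was at 207 and 162 FPKM at -24 h and 60 h; its log2 ratio was 1.41, or 0.82 by the mean over introns. The nucleoside diphosphate kinases moved in opposite directions. Nme3 was at 31.7 ± 2.08 FPKM at 168 h and 6.01 ± 1.08 FPKM at 120 h, whereas Nme1 was at 67.6 ± 2.40 FPKM at 168 h and 340 ± 10.1 FPKM at 120 h. Nme1 was at 363 FPKM at -24 h and 132 FPKM at 60 h, so its 120 h level was above that of 60 h. Nme3 was at 4.78 and 5.21 FPKM at -24 h and 60 h. Among the largest falls outside the lists were further genes of cell division, the securin Pttg1, the spindle gene Tacc3 and the passenger protein Cdca8. The kinesin Kif20a, 1 of the 27 cell cycle genes that fell, was at 4.06 ± 0.411 FPKM at 168 h and 21.4 ± 1.09 FPKM at 120 h. Neuronal beta-tubulin Tubb3 fell to 4.50 ± 0.509 FPKM at 168 h, against 24.7 ± 1.53 FPKM at 120 h.

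**Figure D4:**
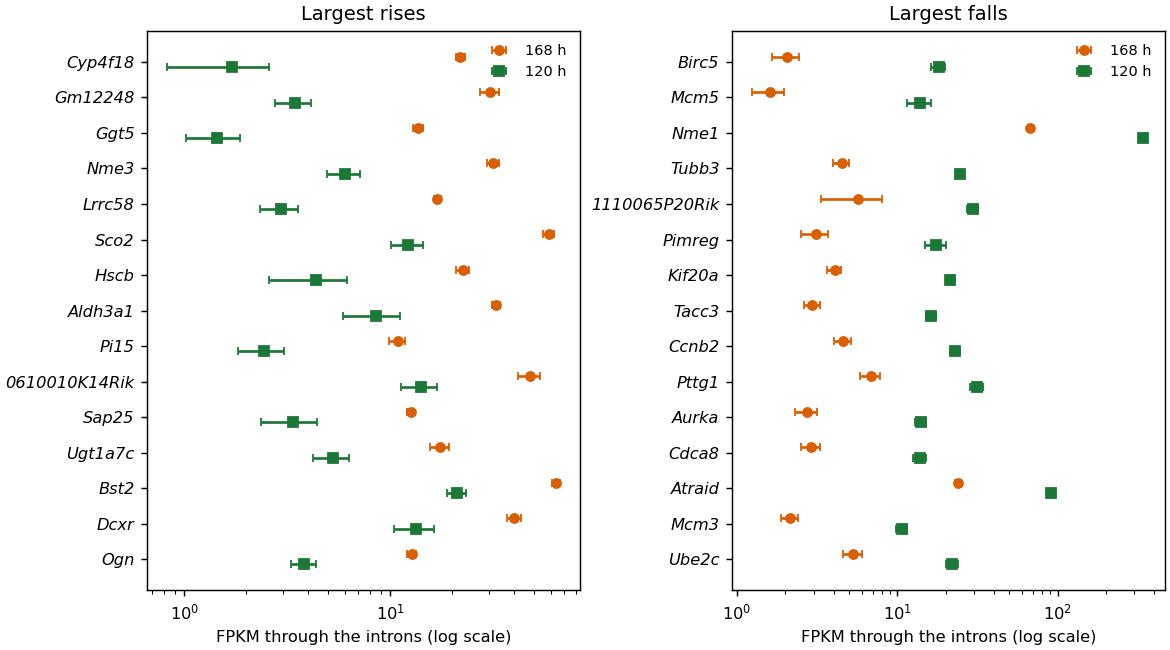
Levels in FPKM on a log axis for the 15 largest rises and the 15 largest falls among genes without copies, 168 h as orange circles above 120 h as green squares, with bars to the confidence limits. Cyp4f18 leads the rises, at 21.9 FPKM at 168 h against 1.70 FPKM at 120 h, and Birc5 the falls, at 2.04 FPKM at 168 h against 18.1 FPKM at 120 h.

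A further 918 genes had a level at 168 h and none at 120 h, and 448 had one at 120 h and none at 168 h. Most were low, with median levels of 0.81 FPKM at 168 h for the 918 and 1.13 FPKM at 120 h for the 448. At 5 FPKM or more were 127 of those with a level at 168 h, of which 107 also had one at 60 h, and 56 of those with a level at 120 h, of which 46 also had one at 60 h. The highest genes show that a missing level is not a level of 0. The ribosomal protein gene Rpl8, which has copies, was at 1788 ± 10.8 FPKM at 168 h, at 1531 FPKM at -24 h and at 1242 FPKM at 60 h, yet the 120 h assembly used here had no transcript over its span. The respiratory chain gene Ndufs7 was at 272 ± 5.28 FPKM at 168 h, and at 120 h its span held 4 transcripts without introns, the highest at 2.18 FPKM. The fast troponin Tnnt3 was at 143 ± 6.44 FPKM at 168 h and 153 FPKM at 60 h, with no level at 120 h. In the other direction, the cardiac troponin Tnnt2, which embryonic skeletal muscle also uses, was at 1228 ± 15.3 FPKM at 120 h, 601 FPKM at 60 h and 122 FPKM at -24 h, and the 168 h assembly had no transcript over its span. Of 20 such genes looked at, chosen by their high levels after the values were seen, 12 had no transcript of any kind over their span in the other library. These genes enter no ratio above. Tnnt2 is on the cardiac marker list, whose detected members summed to 32.55 FPKM at 168 h and 1267 FPKM at 120 h. Of the sum at 120 h, 1228 FPKM was Tnnt2, which had no level to add at 168 h. The cardiac sums therefore cannot be compared. Nppa, Nppb, Tbx5, Hand2 and Myl7 of that list had no level in either library.

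The introns also showed which exons were used. At 6616 splice sites with at least 5 FPKM in both libraries and more than 1 partner, the share of a partner differed by at least 20 percentage points, with intervals apart, at 2067 sites in 1240 genes. Many of these shares were 0 or 100% because an intron was not assembled in 1 library, and the largest such differences were in genes with copies. Where every intron was assembled in both libraries, 523 of 3267 sites in 346 genes differed. Single exons were taken only from sites that already differed, 106 exons in 97 genes, so most were bound to differ in inclusion too. Inclusion itself differed by 20 points or more for 97 of these exons, in 90 genes. The exons named below were chosen after their values were seen.

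Inclusion of 7 exons is given as the share of FPKM that included the exon. Trip10, a membrane-bending adaptor of the Cdc42 pathway, included a 168-base exon at 80.7% ± 2.48 at 168 h and 17.0% ± 4.47 at 120 h, and at 6.55% and 18.1% at -24 h and 60 h. This exon, which keeps the reading frame, was therefore high at 168 h and low in the other 3 libraries. The fibronectin gene Fn1 included its extra domain B exon of 273 bases at 80.9% ± 0.448 at 168 h and 35.5% ± 0.856 at 120 h, with 61.0% at -24 h and 75.7% at 60 h. Mbnl1, itself a splicing regulator, included a 95-base exon at 86.9% ± 4.47 at 168 h and 33.6% ± 7.41 at 120 h, with 62.7% at -24 h and 71.1% at 60 h. The kinase gene Map4k4 included a 9-base exon at 83.9% ± 2.79 at 168 h and 37.9% ± 5.14 at 120 h, with 26.8% at -24 h and 73.3% at 60 h. In Fn1, Mbnl1 and Map4k4 the 168 h share was above that of 60 h, with intervals apart, and the 120 h share was the lowest of the 3 after the switch; the part of the 120 h library itself in this was not tested. Inclusion was lower at 168 h for 1 of the 7. Neb, the nebulin gene of the thin filament, included a 105-base exon at 32.3% ± 5.39 at 168 h and 77.6% ± 3.48 at 120 h, with 88.1% at 60 h. Med15 and Hspg2 included their exons at 74.6% and 54.2% at 168 h, against 27.9% and 12.4% at 120 h. The Hspg2 exon, of 51 bases, was not matched to a coding exon of the annotation. Its included and skipped levels at 168 h, 88.3 and 74.6 FPKM, were those of another Hspg2 exon, of 18 bases, in reverse. The Hspg2 share thus depends on how the assembly joined these exons. The gene levels of Fn1, Mbnl1 and Hspg2 did not pass the rule, with log2 ratios of 0.22, -0.16 and 0.69.

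**Figure D5:**
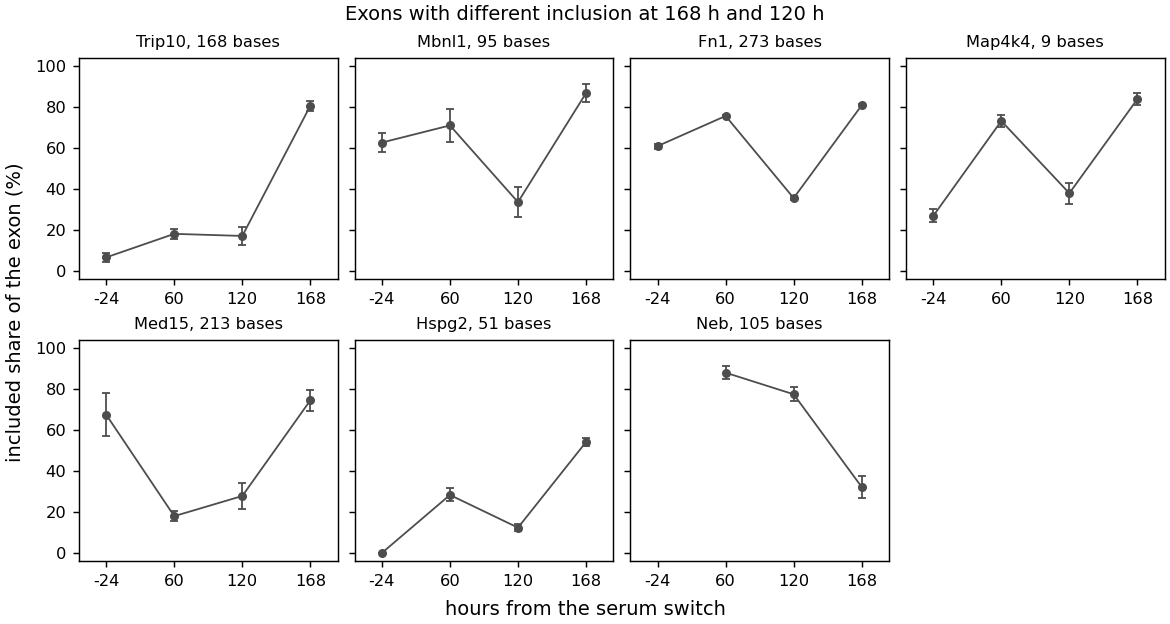
Percent of FPKM that included the exon at -24 h, 60 h, 120 h and 168 h for 7 exons, with bars to the intervals from the confidence limits. Trip10 is at 80.7% at 168 h against 17.0% at 120 h, and Neb is lower at 168 h than at 120 h.

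Sequences of 5 of these exons are printed to show what the transcripts gain or lose, with the exon in capitals and 12 bases of the exons on either side in lower case, 5′ to 3′ on the gene's strand. Positions are those of the deposited assemblies, in a genome build that the labels do not name, and the letters are from GENCODE transcripts (GRCm38) matched by the lengths of the introns and the exon.
Trip10, chr17:57396283-57396450, plus strand: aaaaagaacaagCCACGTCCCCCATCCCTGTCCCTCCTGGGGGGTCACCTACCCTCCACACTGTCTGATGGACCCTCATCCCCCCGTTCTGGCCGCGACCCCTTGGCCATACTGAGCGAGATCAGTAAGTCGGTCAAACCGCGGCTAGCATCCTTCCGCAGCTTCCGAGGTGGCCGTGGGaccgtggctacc
Mbnl1, chr3:60426068-60426162, plus strand: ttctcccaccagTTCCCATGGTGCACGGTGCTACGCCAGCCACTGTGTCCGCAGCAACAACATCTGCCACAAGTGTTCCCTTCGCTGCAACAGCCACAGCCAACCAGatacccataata
Map4k4, chr1:40065176-40065184, plus strand: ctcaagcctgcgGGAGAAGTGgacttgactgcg
Fn1, chr1:71660337-71660609, minus strand: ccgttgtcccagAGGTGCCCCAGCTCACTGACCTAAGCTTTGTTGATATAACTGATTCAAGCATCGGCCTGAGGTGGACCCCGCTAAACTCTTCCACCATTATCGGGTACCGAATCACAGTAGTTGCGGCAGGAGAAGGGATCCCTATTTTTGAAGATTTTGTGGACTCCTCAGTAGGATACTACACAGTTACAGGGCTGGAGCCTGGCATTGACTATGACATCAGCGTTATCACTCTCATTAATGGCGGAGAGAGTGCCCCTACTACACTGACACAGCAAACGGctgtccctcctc
Neb, chr2:52016891-52016995, minus strand: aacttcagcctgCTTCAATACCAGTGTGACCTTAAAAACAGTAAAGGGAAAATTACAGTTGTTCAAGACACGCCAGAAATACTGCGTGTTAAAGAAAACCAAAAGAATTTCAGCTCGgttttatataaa
All 5 lie in coding sequence. The Mbnl1 exon is the 1 of the 5 whose length is not a multiple of 3, so that its 86.9% inclusion at 168 h and 33.6% at 120 h also set the reading frame after it.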

How the data were processed

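The authors deposited 1 transcript assembly per library with an RPKM and lower and upper limits for each transcript. The submitters' processing notes name TopHat 1.0.13 and Cufflinks 0.8.0, and no build is named in them; it was not given in the sources used here. The limits lie 2 square roots of the fragment number from the value, so RPKM is written FPKM and library sizes were computed from the limits. The protocol describes no strand marking, so overlapping antisense genes cannot be separated.

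The 4 libraries held 137519 assembled introns. Comparing the lengths of an intron, the exon after it and the following intron with GENCODE vM21 named 122575 of them. Another 5390 took a name from their own length alone, where the introns on either side already had one. Lengths shifted by 1 to 10 bases would account for 2.07% of these 5390 names. The remaining introns stayed unnamed. A gene's level was the median over its introns of the FPKM carried by each. A pseudocount of 1 FPKM was added before log2. Genes lacking a level in either library were set apart.

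The members and gene lists were chosen with earlier results of these data known. Named genes were the 15 largest ratios in each direction (at least 10 FPKM, at least 2 shared introns), list members that met the rule or had the 4 largest ratios at 5 FPKM or more, and the highest genes of 1 library; the largest ratios without copies and other list members are named after their values were seen. Copies were the percent of 50-base words, taken every 25 bases, found in transcripts of another gene. Alternatives changed the pseudocount, minimum, fold, scaling, intron set, summary and naming. Steps were tested on simulated data. Python 3.11.15, numpy 2.4.6, pandas 2.3.3 and matplotlib 3.10.9 were used. With 1 library per time point, no p-value was computed. Some results are not reported here.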

Additional observations from a re-analysis of the deposited data

How the results depend on the processing

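No paired analysis was possible because each time point has 1 library. The 153 genes that rose and 280 that fell at 168 h became 224 and 458 with a pseudocount of 0.1 FPKM. They became 229 and 601 with the sum over transcripts, of which 105 and 183 were among the 153 and 280. At 4-fold they were 13 and 33, and on introns held by both libraries 130 and 240. Under equal totals 181 rose and 235 fell, a share of 43.5% higher against 35.3%, and 2 cholesterol genes fell in place of 5; this moved the median of all genes to 0.02. Names by runs of lengths only left 528 genes with a value only at 168 h and 281 genes with a value only at 120 h. Splice sites with different shares numbered 718 at 40 points and 616 at 20 FPKM, and where every intron was in both libraries 94 and 208. Over 217 named genes and 2111 alternatives, 2029 kept direction and side of the rule, 56 lost the rule, 16 gained it and 10 reversed. Psmb3 reversed to 0.54 on shared introns and with names by runs; the sum over transcripts gave 0.088 for Hnrnpl, -0.23 for Ldhb, 0.31 for Lig1, -1.33 for Ogn, 0.37 for Prdx1, 0.21 for Rpl34, 0.067 for Top2a and -0.27 for Ttn. The cause was not tested. The restriction to genes without copies (130 rose, 203 fell) and the exon set with every intron in both libraries were chosen after seeing the data. The 120 h library, with fewer fragments, limits the precision of low genes.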
